A study of Arabidopsis thaliana with 12 samples.

Results

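Small auxin up RNA (SAUR) genes are a large plant family of short, mostly intronless genes, many of them in tandem arrays. The 53 loci described here were taken by gene identifier from a list of SAUR loci, out of 33602 genes in the files. Of these, 27 lie in 5 tandem clusters (8 in AT1G294xx, 7 in AT4G347xx, 6 in AT5G180xx, 3 in AT4G388xx and 3 in AT2G212xx) and 26 stand alone. In the files 48 of the 53 have 1 exon.

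Transcripts were measured by mRNA sequencing in whole Arabidopsis thaliana seedlings aged 6 days, grown in shaken liquid culture. The 4 groups of 3 libraries were ixr1-1 in 600 nM isoxaben, ixr1-1 in DMSO, Col-0 in 600 nM isoxaben and Col-0 in DMSO, each treated for 1 h in the morning. Col-0 is the wild type, and ixr1-1 is an isoxaben-resistant line in the same ecotype that carries a point mutation in CESA3, one of the catalytic subunits with which growing cells make cellulose. Isoxaben is a herbicide that blocks cellulose synthesis, and DMSO is its solvent, present in all 4 groups. Whether the 3 libraries of a group stem from separate cultures is not stated in the labels; p-values therefore reflect only how these libraries vary, which may be technical.

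SAUR transcripts are short-lived, and many accumulate within minutes of an auxin stimulus. Several SAUR proteins bind and inhibit phosphatases of the PP2C.D clade, which otherwise keep plasma membrane proton pumps inactive. Released pumps acidify the wall, a step that precedes cell expansion. Other members are driven by brassinosteroid, light or heat, or take part in apical hook formation and leaf senescence.

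Library totals ran from 8521491 to 20658035 counts, of which the 53 loci took 0.0581 to 0.0712%. CESA3 averaged 603 ± 95.7 CPM in ixr1-1 isoxaben, 588 ± 69.4 in ixr1-1 DMSO, 566 ± 38.2 in Col-0 isoxaben and 579 ± 21.2 in Col-0 DMSO (SD, n = 3 each). Because the mutation is a single base change, this level is no check of the genotype labels. All levels are CPM, that is counts scaled to library size and by TMM factors. Enough counts for a test were found for 43 of the 53 loci and for 20379 genes in all. A call is an adjusted p under 0.05 from edgeR's quasi-likelihood test, adjusted by Benjamini-Hochberg over all genes tested in a comparison. Errors of log2 fold changes are standard errors. Each of 10 shoot photosynthesis genes was at 768 CPM or more and each of 12 root markers at 0.844 CPM or more in every library, as whole seedlings hold both organs. In such samples, fewer cells of a type and less RNA per cell cannot be told apart.

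A single gene gave 44.8 to 51.9% of the summed CPM of the 53 loci. This was SAUR78 (AT1G72430), which interacts with ethylene receptors and promotes growth, and it averaged 431 CPM per kb of gene over the 12 libraries. Its level was 336, 305 and 294 CPM in ixr1-1 isoxaben, 336, 301 and 288 CPM in ixr1-1 DMSO, 301, 339 and 304 CPM in Col-0 isoxaben and 298, 324 and 304 CPM in Col-0 DMSO. The 4 groups overlapped, and the genotypes differed by a log2 fold change of -0.02 ± 0.08 in isoxaben and 0.00 ± 0.08 in DMSO, with 95% intervals of -0.16 to 0.13 and -0.15 to 0.15.

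Next in level per kb were SAUR14 (AT4G38840, 89.1 ± 6.34 CPM per kb), SAUR6 (AT2G21210, 48.2 ± 3.36), SAUR16 (AT4G38860, 46.4 ± 5.83) and SAUR32 (AT2G46690, 41.5 ± 4.79; SD over 12 libraries). SAUR14, SAUR16 and SAUR50 are light-responsive genes of cotyledon opening, and SAUR32 acts in the apical hook. The ranges over libraries of SAUR78, SAUR14 and SAUR6 did not overlap, whereas SAUR6, SAUR16 and SAUR32 could not be ordered beyond their spread, since the ranges of neighbours overlapped. In total, 8 tested members exceeded 20 CPM per kb, 19 lay between 5 and 20 and 16 below 5.

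**Figure D1:**
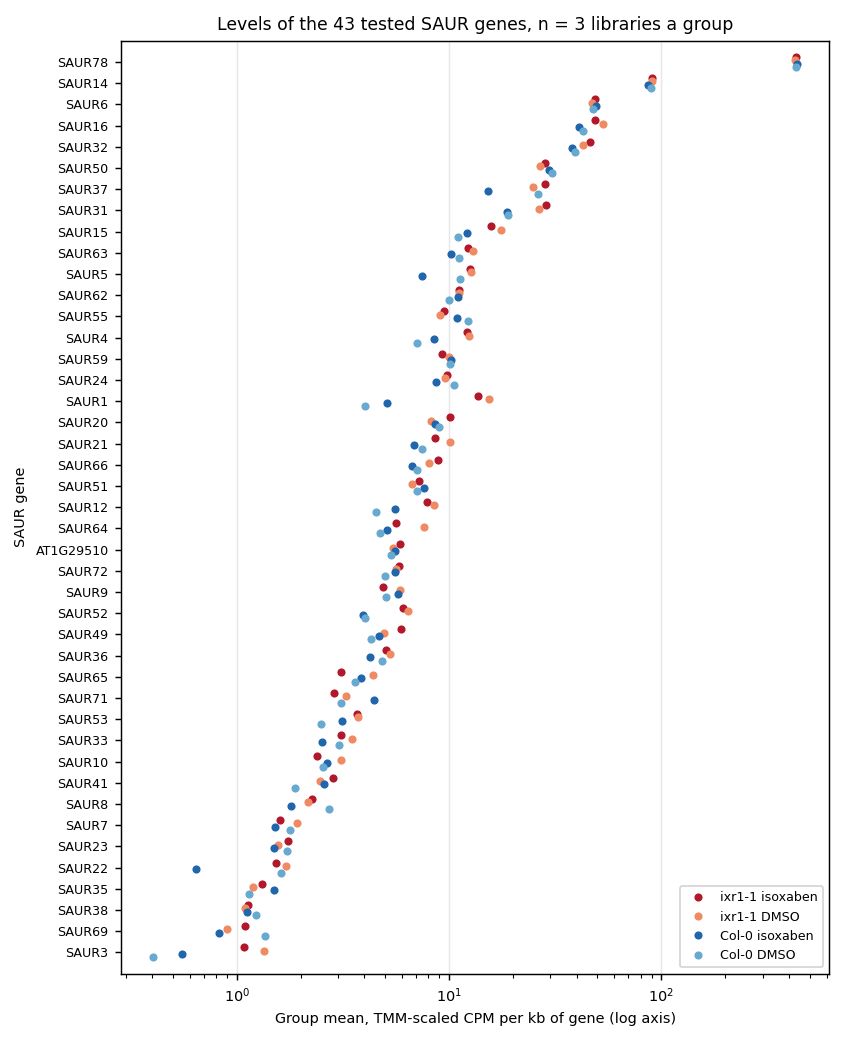
Mean level of each of the 43 tested SAUR genes in the 4 groups, in TMM-scaled CPM per kb of gene on a log axis, ordered by the mean over 12 libraries; each point is the mean of 3 libraries. SAUR78 stands apart at 431 CPM per kb, and SAUR1 and SAUR3 show the widest separation of the ixr1-1 points from the Col-0 points.

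SAUR14 was at 56.4, 47.1 and 53.5 CPM in ixr1-1 isoxaben, 55.5, 54.6 and 48.3 in ixr1-1 DMSO, 45.6, 53.6 and 52.4 in Col-0 isoxaben and 49.0, 50.3 and 56.0 in Col-0 DMSO. SAUR6 was at 33.9, 34.8 and 33.8 CPM in ixr1-1 isoxaben, 33.0, 34.8 and 31.5 in ixr1-1 DMSO, 28.9, 36.7 and 37.4 in Col-0 isoxaben and 31.3, 34.2 and 34.8 in Col-0 DMSO. Both genes overlapped in all 4 groups, with log2 fold changes between genotypes of -0.02 to 0.04. RefSeq transcripts of SAUR6 and its neighbour SAUR7 share 176 identical bases. In the files the 2 genes do not overlap on the same strand, and their coding sequences are 40.2% identical. Whether reads of the pair were split was not tested. SAUR32 was at 36.6, 31.5 and 34.2 CPM in ixr1-1 isoxaben, above all Col-0 isoxaben libraries (25.9, 30.9 and 27), and at 32.3, 32.9 and 29.7 in ixr1-1 DMSO, within the range of Col-0 DMSO (28.6, 33.0 and 24.8). Neither difference passed (log2 fold change 0.28 ± 0.10, adjusted p = 0.0667 in isoxaben; 0.15 ± 0.10, adjusted p = 0.342 in DMSO, edgeR).

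The comparison of ixr1-1 with Col-0 in DMSO asks which members differ with the genotype before any herbicide. Members called were mostly higher in ixr1-1: SAUR1, SAUR3, SAUR31, SAUR15, SAUR12, SAUR16 and SAUR64 rose and SAUR55 fell. Those 8 are 18.6% of the 43 tested members, beside 17.2% of all genes tested. By direction, 16.3% of members were higher, beside 9.79% of all genes, and 2.33% were lower, beside 7.42%. In isoxaben 4 members were called, SAUR37, SAUR31, SAUR1 and SAUR16, all higher, which is 9.3% of members beside 6.92% of all genes called higher and 12.8% called in either direction. In isoxaben 0 members were called lower by edgeR, DESeq2 or limma-voom, beside 5.85% of all genes by edgeR. Without library 3 of ixr1-1 isoxaben, edgeR called 1 member lower. With all libraries, 12 of 43 members in isoxaben had an unadjusted p under 0.05 in either direction (27.9%, beside 26.9% of all genes).

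Over all tested members the log2 fold change was above 0 for 30 of 43 in DMSO (69.8%, beside 49.8% of all genes) and for 32 of 43 in isoxaben (74.4%, beside 50.8%). Its median over the members was 0.16 in DMSO and 0.24 in isoxaben, and over all genes 0.00 in both. The libraries of the 2 genotypes did not overlap for 11 members higher and 2 lower in DMSO (25.6% and 4.65%, beside 17.6% and 16.1% of all genes) and for 9 higher and 0 lower in isoxaben (20.9% and 0%, beside 15.8% and 14.8%). The 53 loci summed to 668 ± 26.3 CPM in ixr1-1 isoxaben and 665 ± 44.9 in ixr1-1 DMSO, against 623 ± 25.5 in Col-0 isoxaben and 627 ± 26.2 in Col-0 DMSO, and the genotypes overlapped in both media. Without SAUR78 the sum was 357 ± 9.19 CPM in ixr1-1 isoxaben and 357 ± 23.0 in ixr1-1 DMSO, against 309 ± 6.94 in Col-0 isoxaben and 318 ± 14.0 in Col-0 DMSO (SD, n = 3 each).

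Several marker sets moved with genotype in these libraries. The 14 seed storage and oil body genes summed to 114 to 664 CPM in ixr1-1 isoxaben and 224 to 730 CPM in ixr1-1 DMSO, against 1.83 to 3.14 CPM in Col-0 isoxaben and 2.18 to 3.93 CPM in Col-0 DMSO. In DMSO 13 of the 14 were higher in ixr1-1, and in isoxaben 11; in Col-0 the cruciferins CRA1, CRU2 and CRU3 reached 0 in some libraries. Photosynthesis genes of the shoot were lower in ixr1-1 for 5 of 10 in isoxaben and 4 of 10 in DMSO, with medians of -0.17 and -0.15. Of 12 root markers 1 was higher and 1 lower in isoxaben and 1 lower in DMSO. Over all genes 5.85% were lower in isoxaben and 7.42% in DMSO, and 6.92% and 9.79% were higher. With the sum of these 14 genes added as a covariate no member was called between genotypes in either medium. The same held for all genes tested, with 0% called, against 17.2% in DMSO and 12.8% in isoxaben without the covariate. Under it the DMSO estimates were 1.58 for SAUR1, 1.74 for SAUR12, 1.08 for SAUR15 and 0.88 for SAUR3, while that of SAUR31 was -0.09 (adjusted p = 1 each). Since that level does not overlap between the genotypes, the 2 cannot be told apart for any member. The loss of calls and the estimates under the covariate therefore set no member apart from another.

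**Figure D2:**
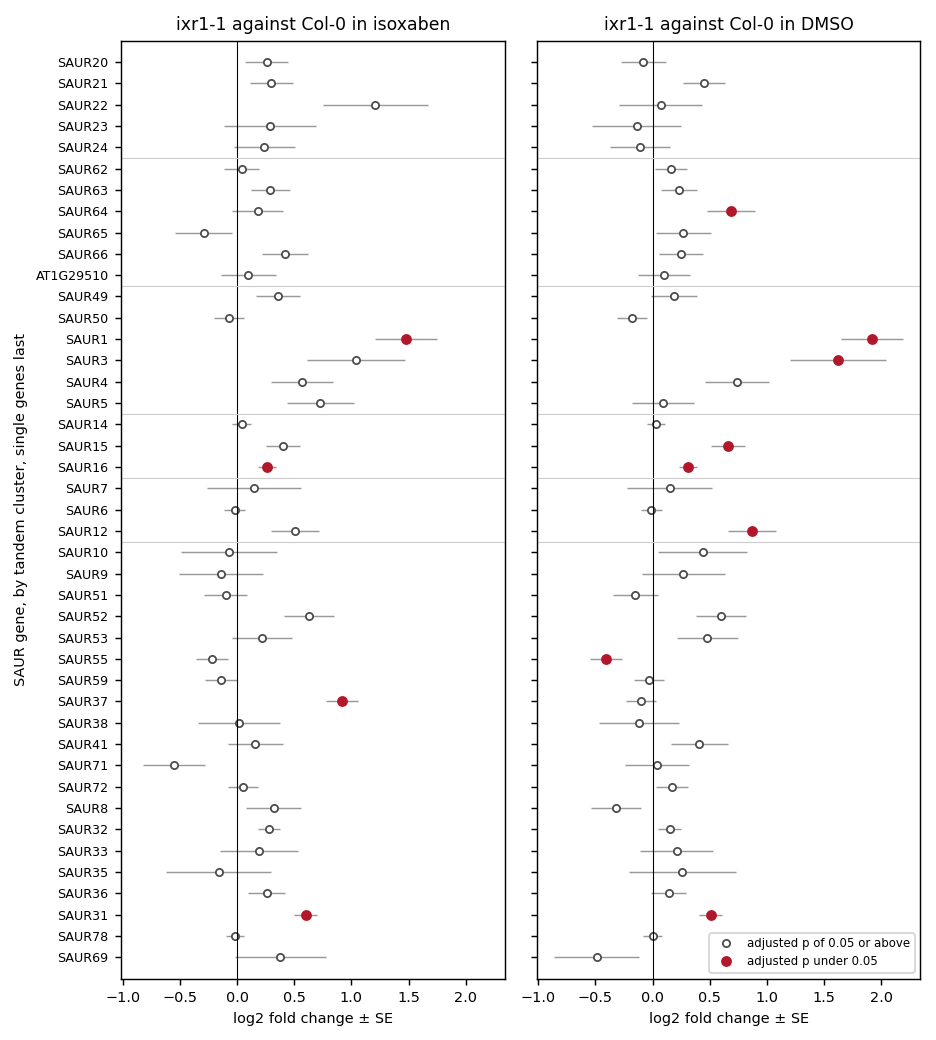
Log2 fold change ± SE of ixr1-1 against Col-0 for the 43 tested SAUR genes, in isoxaben on the left and in DMSO on the right, grouped by tandem cluster with single genes last. Filled points passed an adjusted p of 0.05 (edgeR): 4 in isoxaben, all to the right of 0, and 8 in DMSO, of which 7 lie to the right and SAUR55 to the left.

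Among the 43 tested members, the largest log2 fold change between genotypes in each medium was that of SAUR1, in the AT4G347xx array on chromosome 4. The array holds SAUR49, SAUR50, SAUR1, SAUR2, SAUR3, SAUR4 and SAUR5. SAUR1 (AT4G34770, chromosome 4, 16591229 to 16591892 on the plus strand in the files, 1 exon) was at 7.15, 11.5 and 8.53 CPM in ixr1-1 isoxaben, against 4.64, 2.87 and 2.65 CPM in Col-0 isoxaben. With DMSO it was at 11.3, 9.79 and 9.54 CPM in ixr1-1, against 1.36, 3.59 and 3.04 CPM in Col-0. All 6 ixr1-1 libraries lay above all 6 Col-0 libraries. The log2 fold change was 1.48 ± 0.27 in isoxaben (adjusted p = 0.00335) and 1.92 ± 0.27 in DMSO (adjusted p = 0.000304), or 2.79-fold and 3.78-fold.

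SAUR3 (AT4G34790) was at 0.634, 0.921 and 0.661 CPM in ixr1-1 isoxaben, against 0.483, 0.229 and 0.418 CPM in Col-0 isoxaben. In DMSO it was at 0.934, 0.859 and 0.974 CPM in ixr1-1, against 0.273, 0.141 and 0.419 CPM in Col-0. The groups did not overlap in either medium. The difference passed in DMSO (1.62 ± 0.42, adjusted p = 0.0116) and not in isoxaben (1.04 ± 0.43, adjusted p = 0.126), and without library 2 of Col-0 DMSO the DMSO call ended (adjusted p = 0.053). The DMSO call rests on few reads, 8, 18 and 10 counts in ixr1-1 against 4, 2 and 8 in Col-0.

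Their neighbours SAUR4 and SAUR5 were not called. SAUR4 (AT4G34800) averaged 3.46 ± 0.504 CPM in ixr1-1 isoxaben, 3.54 ± 0.842 in ixr1-1 DMSO, 2.42 ± 1.11 in Col-0 isoxaben and 2.01 ± 0.467 in Col-0 DMSO, a log2 difference between genotypes in DMSO of 0.74 ± 0.28 (adjusted p = 0.0735). SAUR5 (AT4G34810) differed by 0.73 ± 0.29 in isoxaben (adjusted p = 0.111) and by 0.09 ± 0.27 in DMSO (adjusted p = 0.862). At the other end of the array SAUR50 differed by -0.07 ± 0.13 and -0.18 ± 0.13, and SAUR49 by 0.36 ± 0.19 and 0.19 ± 0.20, in isoxaben and in DMSO in that order, none of them called. Coding sequences in this array are 43.8 to 63.9% identical, and none of its members has a near-identical copy elsewhere (at least 95% identity over 100 bp). The 20 other tested genes within 50 kb of SAUR1 had log2 fold changes between genotypes of -0.32 to 0.22 in isoxaben, none called, and of -0.40 to 0.32 in DMSO, 2 of them called higher and 2 lower. The array summed to 43.3 ± 2.46 CPM in ixr1-1 isoxaben and 42.6 ± 3.49 in ixr1-1 DMSO, against 34.1 ± 0.451 in Col-0 isoxaben and 34.2 ± 3.62 in Col-0 DMSO.

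**Figure D3:**
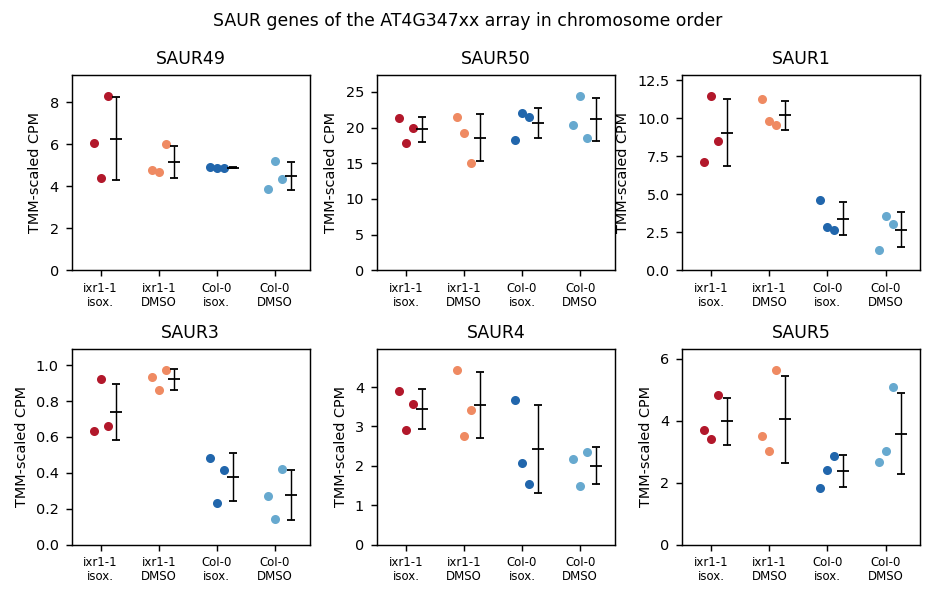
Level in each library, in TMM-scaled CPM, of the 6 tested SAUR genes of the AT4G347xx array in chromosome order; points are libraries and bars are the group mean ± SD (n = 3). The ixr1-1 points of SAUR1 and SAUR3 lie above the Col-0 points in the same medium, whereas those of SAUR49 and SAUR50 overlap with Col-0 in DMSO.

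Promoters of 3 genes of this array are shown because SAUR3, SAUR4 and SAUR5 carry the same 6 letters. Each window is the 250 bases before the gene start in RefSeq (TAIR10.1, plus strand), with the match to CACATG on either strand, here read as CATGTG, in capitals. CACATG was searched after the sequences had been seen.
SAUR3, chr4:16594112-16594361: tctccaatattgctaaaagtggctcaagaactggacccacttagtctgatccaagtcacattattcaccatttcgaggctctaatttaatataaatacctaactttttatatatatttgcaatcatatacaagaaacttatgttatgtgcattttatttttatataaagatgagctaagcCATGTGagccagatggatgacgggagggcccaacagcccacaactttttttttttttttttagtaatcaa
SAUR4, chr4:16596390-16596639: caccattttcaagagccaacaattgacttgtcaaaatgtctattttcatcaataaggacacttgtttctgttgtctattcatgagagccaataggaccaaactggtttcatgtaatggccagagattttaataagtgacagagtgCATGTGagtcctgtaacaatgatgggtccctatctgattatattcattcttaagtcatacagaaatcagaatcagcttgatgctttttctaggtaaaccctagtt
SAUR5, chr4:16598708-16598957: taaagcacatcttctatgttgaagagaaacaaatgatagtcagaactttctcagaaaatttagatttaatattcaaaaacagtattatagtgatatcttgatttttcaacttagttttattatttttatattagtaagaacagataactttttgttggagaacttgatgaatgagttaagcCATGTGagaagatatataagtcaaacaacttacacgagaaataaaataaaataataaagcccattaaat
The match begins 70, 105 and 69 bases before the start of SAUR3, SAUR4 and SAUR5, in that order. SAUR2, SAUR49 and SAUR50 have none in their windows.

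Across the members 22 of 53 promoter windows hold CACATG (41.5%), beside 11.1% of the 27443 gene windows of that length. As CACATG was picked after the sequences had been seen, these shares are no test of an excess. All 8 windows of AT1G294xx hold it, and 4 of the 26 of single members do. CATATG, which reads the same on both strands, is in 13 windows (24.5%, beside 7.12%), and TGTCTC, the auxin response element, in 7 (13.2%, beside 10.9%). CACGTG, the G-box, is in 1 window (1.89%, beside 6.49%) and GGTCCCAT in 1 (1.89%, beside 0.404%). Searches covered both strands, and a match is a description of the letters. Members called and members not called both hold CACATG, as SAUR3 and SAUR5 show.

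In the AT4G388xx array, SAUR15 and SAUR16 were higher in ixr1-1 and SAUR14 differed by less than its spread. SAUR15 (AT4G38850), long known as SAUR-AC1 and induced by auxin and by brassinosteroid, was at 8.24, 7.51 and 8.26 CPM in ixr1-1 isoxaben, against 7.73, 5.04 and 5.79 CPM in Col-0 isoxaben. In DMSO it was at 9.81, 8.40 and 8.76 CPM in ixr1-1, against 5.05, 6.12 and 5.71 CPM in Col-0. The genotypes did not overlap in DMSO, where the difference passed (0.66 ± 0.15, adjusted p = 0.00346), and 1 Col-0 library lay within the ixr1-1 range in isoxaben, where it did not (0.40 ± 0.15, adjusted p = 0.0801). The SAUR15 window holds TGTCTC beginning 92 bases before the start and CACATG at 225 and 106 bases.

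SAUR16 (AT4G38860) was at 40.8, 37.1 and 38.4 CPM in ixr1-1 isoxaben, against 33.5, 31.6 and 31.9 CPM in Col-0 isoxaben. With DMSO the values were 44.4, 44.5 and 37.3 CPM in ixr1-1, against 31.0, 35.5 and 35.3 CPM in Col-0. No overlap was seen in either medium, and both differences were small (0.26 ± 0.08, adjusted p = 0.0367 in isoxaben; 0.31 ± 0.08, adjusted p = 0.00918 in DMSO). Leaving out any 1 of the 6 isoxaben libraries ended the isoxaben call (adjusted p of up to 0.119). In DMSO the call was lost when library 2 of ixr1-1 (0.0718) or library 1 of Col-0 (0.0637) was left out.

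The closest relative of SAUR16 among the members lies in another array, SAUR12 of AT2G212xx, with 85.5% identity of the coding sequence. SAUR12 (AT2G21220) was at 4.35, 3.83 and 3.30 CPM in ixr1-1 isoxaben, against 3.48, 2.52 and 2.16 CPM in Col-0 isoxaben, and the groups overlapped. In DMSO it was at 4.09, 3.68 and 4.67 CPM in ixr1-1, against 1.77, 2.53 and 2.36 CPM in Col-0, with no overlap. The difference passed in DMSO (0.87 ± 0.21, adjusted p = 0.00626) and not in isoxaben (0.51 ± 0.21, adjusted p = 0.114). The 2 other genes of AT2G212xx, SAUR6 and SAUR7, differed in DMSO by -0.01 ± 0.09 and 0.15 ± 0.37.

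The 2 arrays best known for cell expansion, with 5 and 6 members tested, showed 1 call between them. Beside this, 17.2% of all genes were called in DMSO and 12.8% in isoxaben. So few members cannot tell a lower share of calls from that of all genes. AT5G180xx holds SAUR19 to SAUR24, inhibitors of PP2C.D phosphatases, whose coding sequences are 87.7 to 95.2% identical. Its 5 tested members had log2 fold changes between genotypes of 0.24 to 1.21 in isoxaben and of -0.14 to 0.45 in DMSO, none called. SAUR21 came nearest in DMSO (AT5G18030, 5.11 ± 0.642 CPM in ixr1-1 and 3.75 ± 0.444 CPM in Col-0, 0.45 ± 0.18, adjusted p = 0.0954). In isoxaben it was SAUR22 (0.744 ± 0.236 CPM in ixr1-1 and 0.313 ± 0.0925 CPM in Col-0, 1.21 ± 0.46, adjusted p = 0.0935). Whether reads were shared among the genes of this array was not tested. The array summed to 14.1 ± 0.397 CPM in ixr1-1 isoxaben, 14.1 ± 2.83 in ixr1-1 DMSO, 11.5 ± 1.88 in Col-0 isoxaben and 13.2 ± 0.237 in Col-0 DMSO.

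AT1G294xx holds SAUR61 to SAUR66, AT1G29490 and AT1G29510; SAUR63, its best studied gene, promotes elongation of hypocotyls and stamen filaments. SAUR64 (AT1G29450) was at 2.72, 3.97 and 2.58 CPM in ixr1-1 isoxaben, against 3.57, 2.69 and 2.09 CPM in Col-0 isoxaben, which overlapped. In DMSO it was at 4.44, 4.34 and 3.80 CPM in ixr1-1, against 2.32, 2.46 and 2.99 CPM in Col-0, with no overlap. The DMSO difference was 0.69 ± 0.21 (adjusted p = 0.0306), and it no longer passed when library 1 (adjusted p = 0.063) or 2 (0.121) of ixr1-1 DMSO or library 1 (0.106) or 2 (0.0817) of Col-0 DMSO was left out, or with DESeq2 (0.0597). The other 5 tested genes of this array had differences of -0.29 to 0.42 in isoxaben and 0.10 to 0.27 in DMSO, none called. SAUR63 and AT1G29510 are 95.3% identical over 490 bp, and SAUR62 has a copy outside the family list, AT5G27780 (95.1% over 616 bp), so their counts are uncertain.

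Of the single members, SAUR31 and SAUR55 were called between genotypes in DMSO. SAUR31 (AT4G00880) was at 25, 26.8 and 25.9 CPM in ixr1-1 isoxaben, against 14.7, 17.7 and 18.5 CPM in Col-0 isoxaben. In DMSO it was at 21.6, 27.2 and 23.4 CPM in ixr1-1, against 17.0, 17.0 and 17.3 CPM in Col-0. All 6 ixr1-1 libraries lay above all 6 Col-0 libraries (0.60 ± 0.10, adjusted p = 0.000488 in isoxaben; 0.51 ± 0.10, adjusted p = 0.0011 in DMSO). RefSeq transcripts of SAUR31 and AT4G00883 share 360 identical bases. In the files no gene overlaps SAUR31 on either strand, and whether reads of the pair were shared was not tested. The closest relative of SAUR31 among the members, SAUR32, was not called.

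SAUR55 (AT5G50760) was at 8.15, 8.08 and 6.68 CPM in ixr1-1 isoxaben, against 9.85, 9.17 and 7.60 CPM in Col-0 isoxaben, and the groups overlapped. In DMSO it was at 7.71, 8.26 and 6.13 CPM in ixr1-1, against 10.3, 10.6 and 8.96 CPM in Col-0, with no overlap. The DMSO difference (-0.41 ± 0.14, adjusted p = 0.0475) lay just under the threshold. It missed the threshold in 12 of 22 alternative analyses. Among them were those without library 1 (adjusted p = 0.0763) or 3 (0.177) of ixr1-1 DMSO, library 1 (0.127) or 2 (0.137) of Col-0 DMSO, library 1 of ixr1-1 isoxaben (0.0553) and library 2 of Col-0 isoxaben (0.0574).

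SAUR52 (AT1G75590), also single, was close to the threshold in both media, at 0.63 ± 0.22 in isoxaben (adjusted p = 0.0725) and 0.60 ± 0.22 in DMSO (adjusted p = 0.0692). Among the others, the SAUR41 subfamily, which modulates cell expansion, had differences in isoxaben of 0.16 ± 0.24 (SAUR41), -0.55 ± 0.27 (SAUR71, adjusted p = 0.203) and 0.05 ± 0.13 (SAUR72), and in DMSO of 0.41 ± 0.25, 0.04 ± 0.28 and 0.17 ± 0.14 in that order. SAUR71 had the lowest estimate of the tested members in isoxaben. SAUR36, which promotes leaf senescence, differed by 0.26 ± 0.16 in isoxaben and 0.14 ± 0.15 in DMSO.

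**Figure D4:**
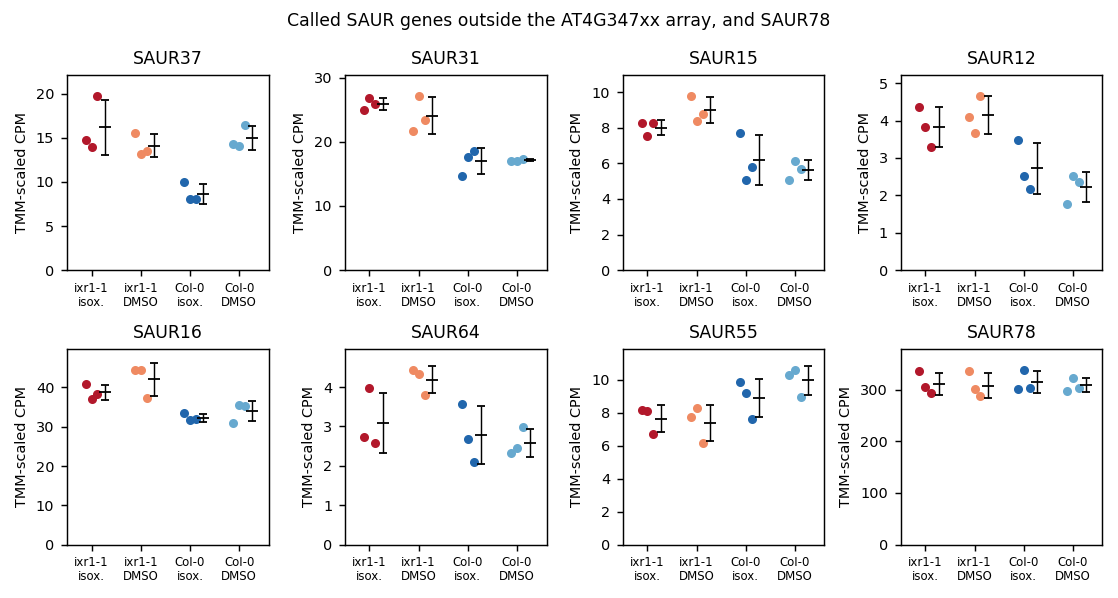
Level in each library, in TMM-scaled CPM, of the called SAUR genes outside the AT4G347xx array and of SAUR78; points are libraries and bars are the group mean ± SD (n = 3). SAUR31 and SAUR16 lie higher in ixr1-1 in both media, SAUR37 is low in the 3 Col-0 isoxaben libraries, and SAUR78 overlaps in all 4 groups.

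The treatment comparison asks which members respond to isoxaben within 1 h, in the wild type and in the resistant line. In Col-0 1 member was called, SAUR37, which fell; that is 2.33% of the tested members, beside 0.167% of all genes called lower and 0.78% called in either direction. SAUR37 (AT4G31320, chromosome 4, 15193993 to 15194562 on the minus strand in the files, 1 exon) was at 10.0, 8.02 and 8.02 CPM in Col-0 isoxaben, against 14.3, 14.1 and 16.5 CPM in Col-0 DMSO, with no overlap. In ixr1-1 it was at 14.8, 14.0 and 19.8 CPM in isoxaben, against 15.6, 13.2 and 13.5 CPM in DMSO, and the groups overlapped.

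Of the 12 root markers, 1 was also lower in Col-0 isoxaben, SHV2, a COBRA-like gene of root hairs. SHV2 averaged 10.4 ± 2.58 CPM in ixr1-1 isoxaben and 9.87 ± 1.82 CPM in ixr1-1 DMSO, and 6.63 ± 0.645 CPM in Col-0 isoxaben and 12.3 ± 0.525 CPM in Col-0 DMSO. Its log2 fold change for isoxaben in Col-0 was -0.91 ± 0.16 (adjusted p = 0.00508), and the difference of effects was 0.95 ± 0.22 (adjusted p = 0.102). The 12 markers together summed to 261 to 304 CPM in ixr1-1 isoxaben and 257 to 285 CPM in ixr1-1 DMSO, and to 255 to 270 CPM in Col-0 isoxaben and 257 to 269 CPM in Col-0 DMSO, with a median log2 fold change in Col-0 of 0.05 and none at 0 in any library. Their part in the fall of SAUR37 was not tested.

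The log2 fold change of SAUR37 for isoxaben was 0.21 ± 0.13 in ixr1-1 (adjusted p = 1) and -0.81 ± 0.14 in Col-0 (adjusted p = 0.00375). The difference of these effects, ixr1-1 minus Col-0, was 1.02 ± 0.19 (95% interval 0.65 to 1.39, adjusted p = 0.0165), the only member called for that interaction (2.33% of members, beside 0.0589% of all genes called higher and 0.314% called in either direction). Without library 2 of Col-0 isoxaben the Col-0 call ended (adjusted p = 0.0504), and the interaction call ended without library 3 of ixr1-1 isoxaben (0.0531), library 2 (0.0887) or 3 (0.0507) of ixr1-1 DMSO, library 2 (0.0903) or 3 (0.0522) of Col-0 isoxaben or library 3 of Col-0 DMSO (0.0766). SAUR37 was also higher in ixr1-1 than in Col-0 in isoxaben (0.92 ± 0.14, adjusted p = 0.000242), while in DMSO the genotypes differed by -0.10 ± 0.13 (adjusted p = 0.643). The Col-0 isoxaben libraries enter both this comparison and the treatment comparison in Col-0.

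The closest relative of SAUR37 is SAUR38 (AT2G24400), with 73.4% identity of the coding sequence. SAUR38 was at 0.895 ± 0.278 CPM in Col-0 isoxaben and 0.980 ± 0.154 CPM in Col-0 DMSO, a log2 fold change of -0.15 ± 0.35 (95% interval -0.83 to 0.53). This interval includes the value of -0.81 found for SAUR37, so a fall of that size in SAUR38 could not be told from none at this depth. The SAUR37 promoter is given as that of the 1 member called for isoxaben. Its window is the 250 bases before the RefSeq start on the minus strand, with CATATG, 98 bases before the start, in capitals; SAUR38 holds the same letters 69 bases before its start.
SAUR37, chr4:15194666-15194915: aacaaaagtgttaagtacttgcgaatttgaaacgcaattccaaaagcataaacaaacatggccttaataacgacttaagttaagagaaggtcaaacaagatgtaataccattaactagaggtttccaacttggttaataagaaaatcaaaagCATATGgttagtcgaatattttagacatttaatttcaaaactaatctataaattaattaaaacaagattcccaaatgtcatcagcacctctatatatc

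No other member passed for isoxaben. SAUR22 (AT5G18050) had the largest estimate in Col-0, at 0.386, 0.344 and 0.209 CPM in isoxaben, against 0.614, 0.914 and 0.839 CPM in DMSO, which did not overlap (-1.33 ± 0.44, adjusted p = 0.304); in ixr1-1 its estimate was -0.19 ± 0.38. SAUR8 (-0.60 ± 0.23, adjusted p = 0.46) and SAUR5 (-0.61 ± 0.29, adjusted p = 0.735) were lower in estimate in Col-0 isoxaben without passing. The 43 members had a median isoxaben effect of 0.01 in ixr1-1, against 0.00 in Col-0. For ixr1-1 0 members were called by edgeR, DESeq2 or limma-voom, 0 had an unadjusted p under 0.05 (beside 3.64% of all genes), and 0% of all genes were called. The member estimates for isoxaben in ixr1-1 ran from -0.50 to 0.30, with a median SE of 0.21.

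**Figure D5:**
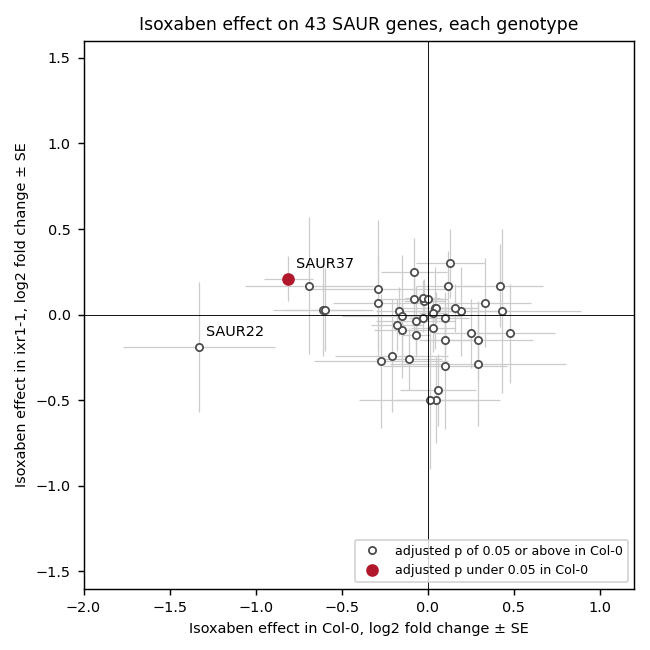
Log2 fold change ± SE for isoxaben against DMSO of the 43 tested SAUR genes, in ixr1-1 on the vertical and in Col-0 on the horizontal axis. SAUR37, the filled point, lies at -0.81 in Col-0 and 0.21 in ixr1-1; SAUR22 lies farther left with a wide error and did not pass.

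The 10 members not tested had few counts. SAUR19, SAUR34, SAUR54, SAUR61 and SAUR70 had 57 to 94 counts over the 12 libraries. AT1G29490 of the AT1G294xx array had 2, 4 and 1 counts in ixr1-1 isoxaben, 5, 15 and 7 in ixr1-1 DMSO, 2, 3 and 0 in Col-0 isoxaben and 1, 1 and 2 in Col-0 DMSO. All 3 ixr1-1 DMSO libraries lay above the other 9 in counts, and in a fit without a filter on low counts it was called higher in ixr1-1 than in Col-0 in DMSO (log2 fold change 2.89, adjusted p = 0.00317). SAUR40 (AT1G79130) had 1, 2 and 3 counts in ixr1-1 isoxaben, 0 in each ixr1-1 DMSO library, 1, 2 and 1 counts in Col-0 isoxaben and 0 in each Col-0 DMSO library. Every isoxaben library thus had at least 1 count and no DMSO library had any; without the filter its adjusted p for isoxaben was 1 for ixr1-1 seedlings and 0.694 for Col-0 seedlings. SAUR2 had 4 counts in all, each in an ixr1-1 library, SAUR11 had 1, and SAUR39 had 0 in every library.

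Genes that act with the SAUR proteins were read from lists chosen by function. To set beside each list here and below, 6.92% of all genes tested were higher in ixr1-1 and 5.85% lower in isoxaben. In DMSO these shares were 9.79% and 7.42%. The lists are short, and whether any of them differs from these shares was not tested. Of 9 tested PP2C.D phosphatases, the targets of SAUR proteins, 1 was higher in ixr1-1 in isoxaben and 4 in DMSO, and 0 were lower. AT3G55050 averaged 45.0 ± 2.70 CPM in ixr1-1 isoxaben and 45.3 ± 2.30 in ixr1-1 DMSO, against 37.4 ± 0.972 in Col-0 isoxaben and 33 ± 2 in Col-0 DMSO (adjusted p = 0.0164 in isoxaben and 0.000152 in DMSO). Of 9 tested plasma membrane proton pumps, HA3 was higher in both media (0.37 ± 0.08 in isoxaben and 0.39 ± 0.08 in DMSO) and HA11 lower in DMSO (-0.31 ± 0.07, adjusted p = 0.00656).

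Upstream, of 11 auxin receptors and activating response factors 1 was higher and 1 lower in isoxaben, and 2 were lower in DMSO, MP (-0.39 ± 0.10), a response factor of embryo and vein patterning, and the receptor AFB3 (-0.23 ± 0.06). Of 25 tested Aux/IAA repressors and GH3 auxin-conjugating enzymes, both rapid auxin response groups like the SAUR genes, 2 were higher and 2 lower in isoxaben and 1 was higher in DMSO. Of 18 tested genes of auxin synthesis and transport 0 were higher, 3 lower in isoxaben and 1 lower in DMSO; TAA1, which makes an auxin precursor, was lower in both (-0.26 ± 0.08 and -0.25 ± 0.08). Of 11 light and brassinosteroid factors 3 were higher in isoxaben and 4 in DMSO, and 0 lower. Among these, BES1, a brassinosteroid transcription factor, averaged 240 ± 18.1 CPM in ixr1-1 isoxaben and 243 ± 26.3 in ixr1-1 DMSO, against 190 ± 23.6 in Col-0 isoxaben and 170 ± 15.4 in Col-0 DMSO. Its relative BZR1 was higher in DMSO (0.43 ± 0.08, adjusted p = 0.0011), and PRE5 in both media (1.04 ± 0.32 and 1.31 ± 0.31).

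Of the 23 further SAUR loci outside the 53, 8 were tested. In isoxaben SAUR45 (0.95 ± 0.26) and SAUR26 (1.06 ± 0.34) were higher in ixr1-1, and in DMSO SAUR13, which lies next to the AT4G388xx array, was higher (1.53 ± 0.37, adjusted p = 0.0075) and SAUR60 lower (-1.07 ± 0.27, adjusted p = 0.0141). For isoxaben against DMSO no gene of these auxin, pump, phosphatase, light or further SAUR lists was called in either genotype; SHV2 of the root markers, described beside SAUR37, was the 1 listed gene called. In Col-0 the nearest were the auxin-conjugating enzyme gene GH3.1 (0.89, adjusted p = 0.0603), the receptor gene GRH1 (-0.28, adjusted p = 0.0728) and the auxin synthesis gene YUC5 (0.54, adjusted p = 0.0794).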

How the data were processed

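Messenger RNA was sequenced in 12 libraries, 3 in each of 4 groups, grouped and numbered as labelled. Each library has 1 deposited file of raw counts, whole numbers of reads assigned to each gene, laid out as featureCounts writes them per the file headers. Tools in the submitters' processing notes are STAR 2.4.1, featureCounts 1.4.6, FastQC 11.1 and bcl2fastq. The sources used here give no genome build, annotation or strand setting of the counting, so reads of genes that overlap on opposite strands (SAUR61, SAUR7 and SAUR8 among the members) cannot be told apart. Coordinates of genes are those of the files. Totals ran from 8521491 to 20658035 counts, and the median SE of a member's log2 fold change was 0.21 in DMSO and 0.22 in isoxaben between genotypes.

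The 53 members and the gene lists were chosen with earlier results of these data known. All 12 libraries entered 1 model with a term per group: genes were filtered by filterByExpr, scaled by TMM and tested with the robust quasi-likelihood fit of edgeR 4.0.16 (glmQLFit, then glmQLFTest; R 4.3.3). P-values were adjusted by Benjamini-Hochberg over 20379 genes within each of 5 comparisons. The SE is the log2 fold change over the root of its F statistic. The fit was tested on simulated data. Values in every library are given for members called in any comparison and for the 5 with the highest mean CPM per kb, and from each list at most 3 called genes a comparison, or the nearest to the threshold. SAUR13, SAUR22, SAUR4, SAUR5, SAUR8, SAUR21 and SAUR52 were added after their values were seen. Counts in every library of AT1G29490 and SAUR40, which were not tested, are also given outside this rule.

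Copies of at least 95% identity over 100 bp were searched for by blastn 2.17.0. Names, promoter windows and gene starts are from RefSeq on TAIR10.1, in which 53 of 53 members were found and 4 have the bounds of the files. RefSeq gives 1 symbol to both AT1G29490 and AT1G29510, which are named by locus. Alternatives changed the scaling (DESeq2 size factors, or library size alone), the filter (none, or 1 CPM in 6 libraries), the tool (DESeq2 1.42.0, or limma-voom of limma 3.58.1) and the libraries (only those compared, each one left out, or both ixr1-1 libraries numbered 1 left out). Others added a replicate block, a covariate (the summed seed storage level), or a minimum fold of 2. One promoter window is not reported here.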

Additional observations from a re-analysis of the deposited data

Results flagged for a closer look

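SAUR37 (AT4G31320) is listed because its isoxaben effect differed between the genotypes by a test of the difference itself. It averaged 16.2 ± 3.15 CPM in ixr1-1 isoxaben and 14.1 ± 1.32 CPM in ixr1-1 DMSO, and 8.7 ± 1.17 CPM in Col-0 isoxaben and 15 ± 1.32 CPM in Col-0 DMSO (SD, n = 3 each). The log2 effect in ixr1-1 minus that in Col-0 was 1.02 ± 0.19 (edgeR adjusted p = 0.0165). The cause was not tested.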

How the results depend on the processing

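Members called between genotypes numbered 8 in DMSO and 4 in isoxaben. With a fold of at least 2 as well they were 2 and 1. With the seed storage covariate they were 0 and 0, and 0% of all genes were called in either medium. With library size alone, only the groups compared, or a replicate block by number, 7 were called in isoxaben, and in DMSO 9, 8 and 10 in that order. Beside them, 14.7, 11.8 and 17.5% of all genes were called in isoxaben, and 17.9, 16.5 and 21.2% in DMSO. Library size alone shifted the median of all genes by 0.069 in isoxaben and by 0.061 in DMSO. Leaving out each library in turn gave 6 to 10 in DMSO and 3 to 5 in isoxaben, beside 11.1 to 18.5% and 7.53 to 13.4% of all genes. Of those in isoxaben, 1 was lower when library 3 of ixr1-1 isoxaben was left out. For isoxaben in Col-0 the count of 1 became 0 with the fold rule and was 0 to 1 with each library left out, and that of the interaction was 0 to 1. For isoxaben in ixr1-1 it was 0 in each analysis run. With the seed storage covariate SAUR31 in DMSO turned to -0.09 and SAUR55 to 0.39 (adjusted p = 1 each), while the other called genotype differences kept their sign. That covariate does not overlap between the genotypes, so a kept or changed sign sets no member apart from another. Library size alone moved 4 array sums: AT5G180xx to 14.5 CPM in ixr1-1 isoxaben and 12.9 in Col-0 DMSO, AT4G347xx to 33.5 in Col-0 isoxaben and AT2G212xx to 40.0 in ixr1-1 isoxaben. SAUR15 and SAUR32 in isoxaben passed with library size alone (adjusted p = 0.0392 and 0.0167). Per the labels' protocols the seedlings of 1 flask were split between isoxaben and DMSO, but no label ties replicate numbers to flasks. Deviations of same-numbered libraries correlated at 0.03 to 0.34 within a genotype (6 pairs, median 0.195) and -0.11 to 0.24 between genotypes, beside -0.35 to 0.13 (median -0.08) for other numbers within a genotype. Not every pair exceeded 0.1, so the numbers were not taken to pair the samples; 9 of 12 libraries correlated best with their own number within the genotype. With the block by flask the members called for isoxaben stayed at 1 in Col-0 and 0 in ixr1-1, and at 1 for the interaction. The share of all genes called rose from 0.78 to 1.8% in Col-0 and from 0 to 0.0638% in ixr1-1. For the interaction that share rose from 0.314 to 0.883%. Depth limits the 10 members that were not tested and the members under 1 CPM, such as SAUR3 and SAUR22.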
